A study of Rattus norvegicus with 4 samples.

Results

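Cathepsins are the proteases of the lysosome, the vacuolar ATPase is the proton pump that acidifies it, and Lamp proteins line its membrane. The genes described here are those on the array whose platform gene symbol named a cathepsin (Cts and 1 letter), a vacuolar ATPase subunit (Atp6v), one of its accessory proteins (Atp6ap) or a Lamp protein. This choice took 56 probe sets of 44 genes out of 20832 probe sets of 14218 genes, and where a gene had several, the one with the highest mean over the arrays stood for it. There were 17 cathepsin genes, 23 proton pump genes and 4 Lamp genes.

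The RNA came from skeletal muscle of F344/DuCrlCrlj rats in a model of intermittent claudication, the pain on walking that a poor blood supply to the leg brings. The groups were ischemia with electrical stimulation that made the muscle contract through its nerve (ischemia + ES), ischemia with exercise (ischemia + exercise), ischemia without treatment (ischemia), and sham, each with 1 array. The sources used here do not give age, sex, timing or the number of rats behind an array, and they place the ischemia in the hindlimb without naming the muscle. No genetic change is named for any group. With 1 array per group there is no replicate error and no test, so every difference below is one between 2 arrays.

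Cathepsins are made as inactive precursors and become active at acid pH, in the lumen that the proton pump acidifies. The pump has a cytosolic V1 part that burns ATP and a membrane V0 part that carries protons, and both are built from many subunits, some with isoforms restricted to kidney, bone or nerve. In muscle, lysosomes receive the contents of autophagosomes, while macrophages and fibroblasts of the same tissue hold lysosomes of their own and use some cathepsins to digest matrix and antigens. RNA of a whole muscle piece cannot tell more cells of a type from more RNA per cell.

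Median signals of the arrays lay between 29.0 and 31.8, and skeletal muscle RNA was present on each: the 5 listed muscle genes on the array, among them Ckm and Acta1, summed to signals between 51160 and 59360. The signal ratio of 3' to 5' actin probe sets, which rises as RNA breaks down, was 5.94 with ischemia + ES, 4.34 with ischemia + exercise, 3.81 with ischemia and 4.38 with sham, and its part in the results was not tested. A signal under 30.1, the median of all values, was set to that floor before log2 ratios were taken. Of all genes, 10092 lay above the floor on at least 1 array. Of the 44 described genes, 31 did so, and 30 were above it on all 4 arrays.

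Cathepsin signals differed between the arrays more than those of the proton pump. In ischemia over sham, Ctsk alone among the 31 genes was 2-fold or more higher and none was 2-fold lower, where 0.783% of all genes were higher and 0.862% lower by that measure. At 1.5-fold, 2 genes were higher, Ctsk and Ctss, and none lower, against 4.94% and 3.19% of all genes. The 12 measured cathepsins had a median log2 ratio of 0.35 and the 17 measured pump genes one of -0.03, beside 0.0021 over all genes. Ratios above 0 were found for all 12 cathepsins (11 of 12 under quantile or loess normalization or with the mean of all probe sets, where Ctsc turned) and for 8 of 17 pump genes, against 50.3% of all genes. Ctse, 1 of the 12, passed the floor on the ischemia array alone, which fixed its sign. Without Ctse, 11 of 11 cathepsins were above 0.

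In ischemia + ES over ischemia, 0 of 31 genes reached 2-fold, or 1.5-fold, in either direction, where 2.28% of all genes were 2-fold higher and 0.793% lower, and 9.8% were 1.5-fold higher and 4.72% lower. Cathepsins had a median log2 ratio of 0.02 with 7 of 12 above 0, and pump genes one of 0.06 with 12 of 17 (70.6%) above 0, beside 0.05 and 56.0% for all genes. In ischemia + exercise over ischemia, Ctsk alone was 2-fold lower and no gene was 2-fold higher, where 0.872% of all genes were lower and 1.14% higher. At 1.5-fold, 2 genes were lower, again Ctsk and Ctss, and none higher, against 4.24% and 4.02% of all genes. Cathepsins had a median log2 ratio of -0.31 with 12 of 12 below 0 (11 of 12 where all probe sets of a gene were averaged), against 48.7% of all genes, and pump genes a median of 0.05 with 4 of 17 below 0. Without Ctse, whose sign was again fixed, 11 of 11 cathepsins were below 0.

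These 3 comparisons share the ischemia array, so a signal that was high on it alone would enter all of them. Against sham, which was not part of the last 2 comparisons, ischemia + ES had 2 genes 2-fold higher, Ctsk and Ctss, and none lower, where 3.78% of all genes were higher and 1.06% lower. At 1.5-fold, Ctsz and Ctsl joined them to make 4 higher and none lower, against 12.4% and 4.36% of all genes. In ischemia + exercise over sham, 0 of 31 genes reached 2-fold, where 0.258% of all genes were higher and 0.188% lower, and 0 reached 1.5-fold, where 2.93% were higher and 1.7% lower. The median of the cathepsins was 0.40 with ischemia + ES and -0.01 with ischemia + exercise, each over sham. Ctse counts among the 12 cathepsins only because its ischemia signal of 32.7 passed the floor, which fixed its sign in each comparison with that array. Without Ctse the cathepsin median was 0.40 in ischemia over sham, 0.03 in ischemia + ES over ischemia and -0.34 in ischemia + exercise over ischemia.

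**Figure D1:**
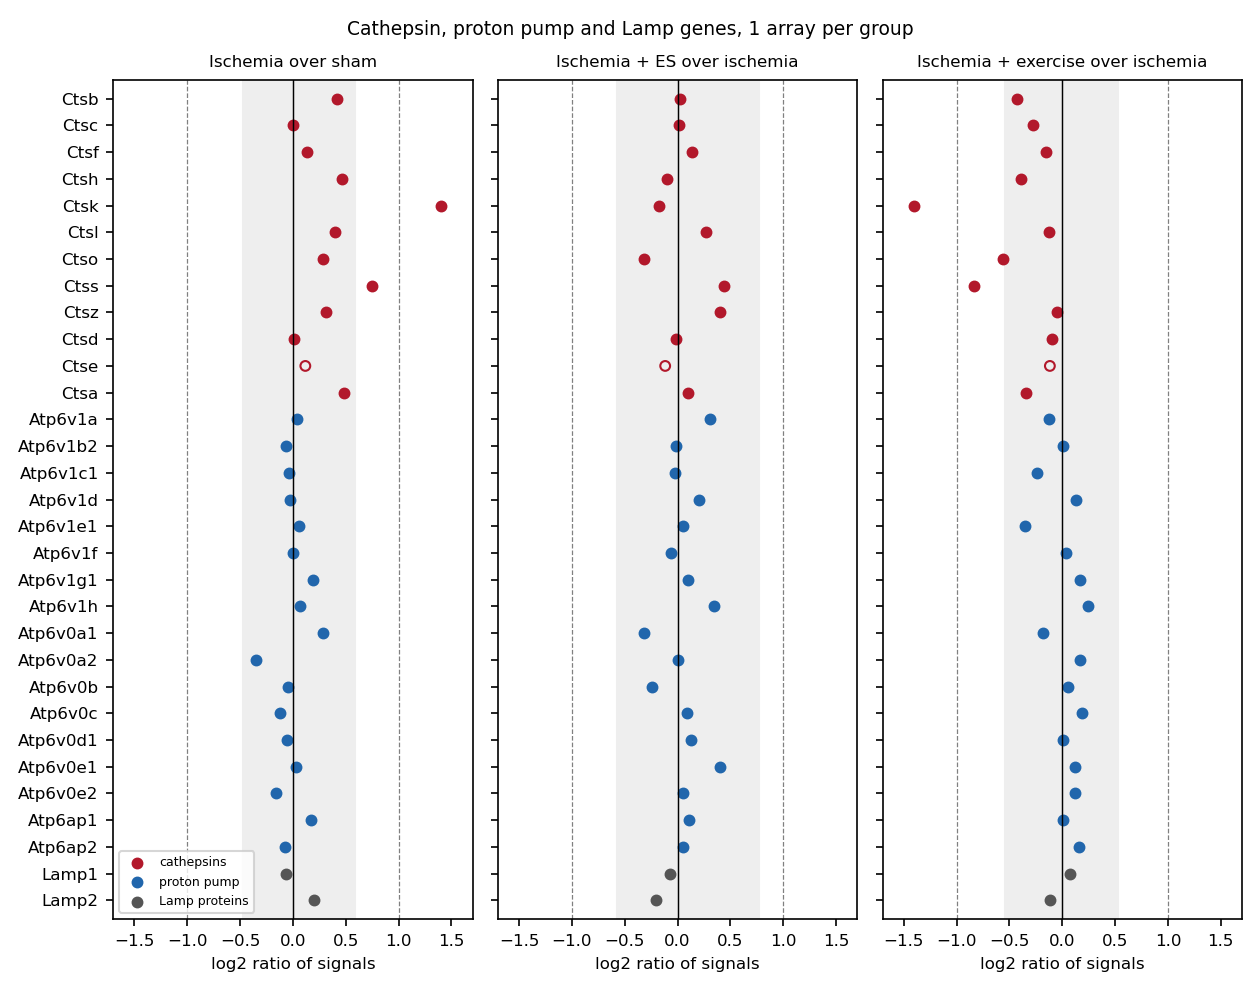
Log2 ratio of signals (x axis) of each of the 31 measured genes (rows) in 3 comparisons, with 1 array per group; grey bands hold the middle of all 10092 genes from the 5th to the 95th percentile, dashed lines mark 2-fold, and an open point is a bound. Ctsk passes the dashed line at 1.40 with ischemia and at -1.40 with ischemia + exercise, while the pump genes stay between -0.35 and 0.40.

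The cysteine cathepsins are the largest group. Ctsk encodes cathepsin K, a collagen-degrading protease best known from osteoclasts and also made by activated fibroblasts and macrophages. Its signal was 246 with ischemia + ES, 105 with ischemia + exercise, 278 with ischemia and 105 with sham. It was thus high on the ischemia + ES and untreated ischemia arrays and low on the other two. The signal was 2.64-fold higher in ischemia than in sham, the 19th highest ratio of 10092 genes, and 2.64-fold lower in ischemia + exercise than in ischemia, the 18th lowest. With ischemia + ES it was 1.13-fold lower than in ischemia and 2.34-fold higher than in sham.

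Ctss encodes cathepsin S, which stays active near neutral pH and trims the invariant chain in antigen-presenting cells. Its signal was 394 with ischemia + ES, 162 with ischemia + exercise, 290 with ischemia and 173 with sham. Here the ischemia + ES array was the highest, 1.36-fold above ischemia and 2.28-fold above sham. Ischemia was 1.68-fold higher than sham, at rank 245 of 10092, and ischemia + exercise 1.78-fold lower than ischemia, at rank 160 from the lowest. Each of Ctsk and Ctss had 1 probe set, so neither has a second measurement on these arrays.

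Ctsb and Ctsl, for widely expressed cathepsins that do much of the bulk protein digestion in lysosomes, differed less between arrays. The Ctsb signal was 1710 with ischemia + ES, 1246 with ischemia + exercise, 1678 with ischemia and 1260 with sham, which is 1.33-fold higher in ischemia than in sham and 1.35-fold lower in ischemia + exercise than in ischemia. The Ctsl signal was 1627 with ischemia + ES, 1236 with ischemia + exercise, 1348 with ischemia and 1023 with sham. Ctsl was lowest on the sham array, with ischemia + exercise 1.21-fold above sham. Its dimmer probe set read 498, 393, 314 and 293 in that order of arrays, so that its log2 ratio in ischemia + exercise over ischemia was 0.32, where the brighter one gave -0.13. In ischemia + ES over ischemia the dimmer one gave 0.66, which is past 1.5-fold, and the brighter one 0.27.

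Ctsh, for an aminopeptidase of lysosomes, had signals of 856 with ischemia + ES, 699 with ischemia + exercise, 919 with ischemia and 666 with sham. Like Ctsk and Ctsb it was higher on the ischemia + ES and ischemia arrays than on the other two. Ctsz, for a carboxypeptidase, read 125 with ischemia + ES, 91.5 with ischemia + exercise, 94.5 with ischemia and 76.3 with sham, highest with ischemia + ES by 1.32-fold over ischemia. Ctso read 49.1, 41.5, 61.2 and 50.2 in the same order, near the floor, and was 1.48-fold lower in ischemia + exercise than in ischemia.

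The remaining measured cysteine cathepsins moved least. Ctsc, for the dipeptidyl peptidase that activates granule proteases of leukocytes, read 549.8 with ischemia + ES, 449 with ischemia + exercise, 543.5 with ischemia and 542.8 with sham. On this probe set the ischemia + exercise array was lowest, by 1.21-fold against ischemia. The dimmer one read 131, 139.5, 157 and 166 in the same order and was lowest with ischemia + ES, at a log2 ratio of -0.26 over ischemia and of -0.17 in ischemia + exercise over ischemia. Ctsf lay between 269 and 330 on the 4 arrays. The other 5 cysteine cathepsins on the array were not above the floor on any array: Ctsw, known from cytotoxic lymphocytes, and Ctsj, Ctsm, Ctsq and Ctsr, which belong to a rodent cluster expressed in placenta. These 4 placental genes lie on chromosome 17, as does Ctsl.

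**Figure D2:**
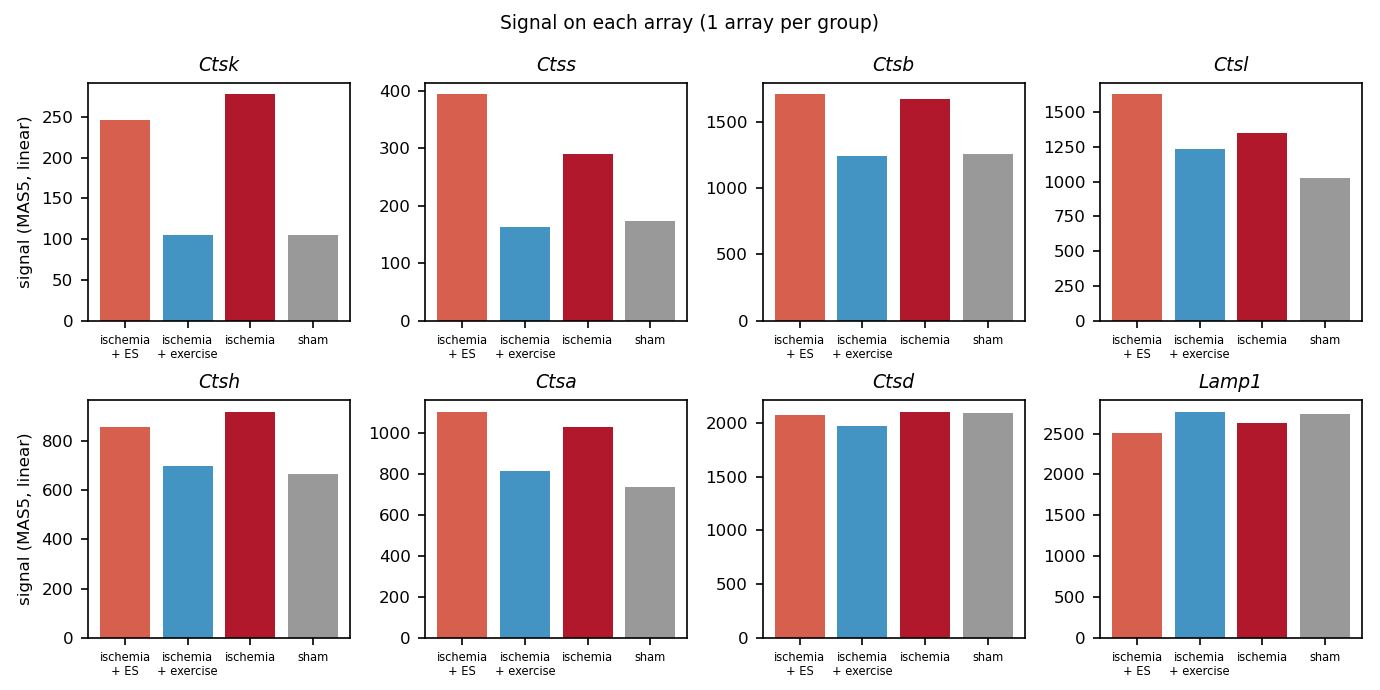
MAS5 signal on a linear scale (y axis, from 0) of 8 genes on the ischemia + ES, ischemia + exercise, ischemia and sham arrays, 1 bar per array. Ctsk and Ctss are at 246 and 394 with ischemia + ES against 105 and 173 with sham, while Ctsd and Lamp1 differ little across the arrays.

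Ctsk and Ctss, the pair with the widest range across arrays, are near neighbours on chromosome 2. Their promoter windows lie 27.8 kb apart on the plus strand in GRCr8, with 2 other annotated genes starting between them. A promoter window, from 250 bases before to 50 after an annotated start of the gene, was found for 37 of the 44 genes in a RefSeq table of that build. Where a gene had several windows, the one lowest in coordinate was used, for all genes alike. On the minus strand that one need not be at the first start, so a window may lie inside the gene. The windows were searched for CACGTG, the core that the lysosomal regulator TFEB and other basic helix-loop-helix factors bind, and for GTCACGTG on either strand, a longer form that contains it. CACGTG was in 5 of 37 windows (13.5%), against 6.63% of 27457 genes, and in 5 of the 26 windows of measured members (19.2%), against 9.84% of the 8439 measured genes with a window. GTCACGTG was in 4 of 37 (10.8%), against 2.02% of all genes, and in 4 of 26 (15.4%), against 4.08% of measured genes. The full palindrome, GTCACGTG followed by AC, was in 0 of 37, against 0.28% of all and 0.581% of measured genes. The 4 were Ctsd, Lamp1, Atp6v0d1 and Atp6v0e1, and Ctsf held the short form alone. Neither form was in the windows of Ctsk and Ctss. The windows of the pair that differed most and of 2 bright genes that hold the motif are given 5′ to 3′ on the gene's strand, with CACGTG in capitals together with GT before or AC after it where present. They are chr2:185747298-185747597 (plus strand) for Ctsk, chr2:185775146-185775445 (plus) for Ctss, chr16:83075014-83075313 (minus) for Lamp1 and chr1:206968772-206969071 (minus) for Ctsd.
Ctsk: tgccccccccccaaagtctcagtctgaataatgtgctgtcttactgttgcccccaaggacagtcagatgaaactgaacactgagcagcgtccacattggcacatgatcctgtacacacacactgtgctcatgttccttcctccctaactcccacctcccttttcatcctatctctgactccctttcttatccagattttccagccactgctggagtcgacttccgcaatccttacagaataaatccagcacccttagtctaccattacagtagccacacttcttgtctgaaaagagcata
Ctss: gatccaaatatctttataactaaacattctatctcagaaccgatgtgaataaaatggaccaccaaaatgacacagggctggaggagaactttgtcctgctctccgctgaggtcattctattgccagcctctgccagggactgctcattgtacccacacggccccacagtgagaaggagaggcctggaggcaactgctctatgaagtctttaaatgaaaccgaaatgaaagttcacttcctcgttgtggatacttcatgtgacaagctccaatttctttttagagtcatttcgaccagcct
Lamp1: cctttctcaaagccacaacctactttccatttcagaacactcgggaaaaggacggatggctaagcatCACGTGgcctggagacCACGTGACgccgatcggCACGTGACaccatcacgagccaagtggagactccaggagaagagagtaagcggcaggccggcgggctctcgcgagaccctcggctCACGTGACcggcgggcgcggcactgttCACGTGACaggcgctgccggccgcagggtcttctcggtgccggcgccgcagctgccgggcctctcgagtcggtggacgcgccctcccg
Ctsd: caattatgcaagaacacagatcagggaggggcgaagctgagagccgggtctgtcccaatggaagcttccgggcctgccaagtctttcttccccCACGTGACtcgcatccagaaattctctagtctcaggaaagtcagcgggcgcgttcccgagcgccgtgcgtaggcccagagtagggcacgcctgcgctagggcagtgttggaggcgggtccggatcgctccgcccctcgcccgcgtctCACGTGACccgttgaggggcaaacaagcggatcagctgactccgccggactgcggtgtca
The Lamp1 window holds 5 copies and the Ctsd window 2, and the highest array was 1.10-fold the lowest for Lamp1, 1.07-fold for Ctsd, 1.10-fold for Atp6v0d1, 1.22-fold for Ctsf and 1.35-fold for Atp6v0e1. A match describes the letters only, and nothing follows from it, or from its absence, about a factor.

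Of the aspartic cathepsins, Ctsd encodes the main aspartic protease of lysosomes. Its signal was 2078 with ischemia + ES, 1973 with ischemia + exercise, 2106 with ischemia and 2091 with sham. The highest of the 4 was 1.07-fold the lowest, the narrowest range among cathepsins measured on all arrays. Ctse, a cathepsin of stomach and immune cells, lay under the floor on 3 arrays and at 32.7 with ischemia, so its ratio is only a bound of at least 1.08-fold higher in ischemia than in sham. Ctsa, the serine carboxypeptidase that also protects beta-galactosidase and neuraminidase, read 1106 with ischemia + ES, 815 with ischemia + exercise, 1032 with ischemia and 739 with sham. It was 1.40-fold higher in ischemia than in sham, 1.27-fold lower in ischemia + exercise than in ischemia, and at a log2 ratio of 0.58 in ischemia + ES over sham.

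None of the 8 measured V1 subunits of the proton pump reached 1.5-fold in any comparison. Atp6v1d, for a subunit of the central rotor, read 2303 with ischemia + ES, 2196 with ischemia + exercise, 2002 with ischemia and 2041 with sham. Atp6v1f, another rotor subunit, read 1487, 1586, 1551 and 1546 in that order. Atp6v1a, for the catalytic subunit, read 397 with ischemia + ES, 294 with ischemia + exercise, 321 with ischemia and 313 with sham, and so stood out by 1.24-fold on the ischemia + ES array against ischemia, where its dimmer probe set had a log2 ratio of 0.03. Atp6v1b2, for its non-catalytic partner, lay between 292 and 308.5, but its dimmer probe set read 80.9 with ischemia + ES, 99.8 with ischemia + exercise, 78.2 with ischemia and 68.9 with sham, a log2 ratio of 0.53 in ischemia + exercise over sham.

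The other V1 subunits differed on different arrays. Atp6v1h, for the subunit that regulates ATP use, read 273 with ischemia + ES, 254 with ischemia + exercise, 215 with ischemia and 205 with sham, higher on both treated arrays. Atp6v1e1, for a stalk subunit, read 1259, 953, 1215 and 1168 in that order, lowest with ischemia + exercise by 1.28-fold against ischemia. Atp6v1g1, which joins it in the stalk, read 532, 557, 496 and 436, lowest with sham, and Atp6v1c1 lay between 184 with ischemia + exercise and 223 with sham. Over the 8 measured V1 genes, the median log2 ratio was 0.02 in ischemia over sham, 0.08 in ischemia + ES over ischemia and 0.02 in ischemia + exercise over ischemia.

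Of the V0 subunits, Atp6v0c encodes the proteolipid of the rotating ring. Its signal was 1117 with ischemia + ES, 1197 with ischemia + exercise, 1051 with ischemia and 1143 with sham. Atp6v0d1, for the subunit that links ring and rotor, read 676.5, 622, 618 and 640 in that order. Neither gene differed by more than 1.14-fold between any 2 arrays. Atp6v0e1, for a small membrane subunit, was highest with ischemia + ES, at 522 against 427 with ischemia + exercise, 394 with ischemia and 386 with sham, a log2 ratio of 0.40 over ischemia and the highest of the pump genes in that comparison.

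The a subunits, which form the proton path, went different ways in ischemia over sham. Atp6v0a1 was at a log2 ratio of 0.28 and Atp6v0a2 at -0.35, both from signals of at most 121. The second probe set of Atp6v0a2 gave -0.40 there, but 0.70 in ischemia + exercise over ischemia, where the brighter one gave 0.17. Atp6v0b read 285 with ischemia + ES against 338 with ischemia, and Atp6v0e2 lay between 259 and 290.4. Over the 7 measured V0 genes the median log2 ratio was -0.05 in ischemia over sham, 0.05 in ischemia + ES over ischemia and 0.12 in ischemia + exercise over ischemia.

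Accessory proteins and restricted isoforms complete the pump. Atp6ap1, for a protein that helps to assemble it, read 1120 with ischemia + ES, 1046 with ischemia + exercise, 1041 with ischemia and 924 with sham. Atp6ap2, also known as the prorenin receptor, lay between 390.5 and 437. The 5 restricted isoforms on the array, Atp6v1b1, Atp6v1c2, Atp6v1g2, Atp6v1g3 and Atp6v0a4, were not above the floor on any array, nor was Atp6ap1l. Over the 17 measured pump genes the highest array was at most 1.35-fold the lowest, with a median of 1.22-fold, where the 11 cathepsins measured on all arrays had a median of 1.48-fold and the 8828 genes above the floor on all arrays one of 1.33-fold. These values are for the brightest probe set of each gene, and some dimmer ones ranged more widely. That of Atp6v0a2 read 123.5 with ischemia + exercise and 76.1 with ischemia, and that of Ctsl 498 with ischemia + ES and 293 with sham.

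Of the Lamp genes, Lamp1 read 2507 with ischemia + ES, 2769 with ischemia + exercise, 2629 with ischemia and 2743 with sham. Lamp2, whose protein also serves as a receptor of chaperone-mediated autophagy, read 1223 with ischemia + ES, 1297 with ischemia + exercise, 1408 with ischemia and 1227 with sham. Its second probe set was likewise higher in ischemia than in sham, at a log2 ratio of 0.30 against 0.20, but gave 0.02 in ischemia + ES over ischemia, where the brighter one gave -0.20. Lamp3 and Lamp5, known from dendritic cells and neurons, were not above the floor.

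The arrays also allow a pair of comparisons that share no array: ischemia over sham, and ischemia + ES over ischemia + exercise. In the second, Ctss was 2.42-fold and Ctsk 2.34-fold higher with ischemia + ES, and no other described gene reached 2-fold, or 1.5-fold, where 2.95% of all genes were 2-fold higher and 1.1% lower, and 10.5% were 1.5-fold higher and 4.6% lower. The median log2 ratio was 0.34 over the cathepsins, with 11 of 12 above 0 and Ctse without a ratio, and -0.02 over the pump genes, with 8 of 17 above 0, beside 0.03 and 54.5% for all genes. The rank of Ctss was 117 and that of Ctsk 139 of 10092. Apart from Ctsk and Ctss, the cathepsins lay between log2 ratios of 0.07 (Ctsd) and 0.46 (Ctsb) here, and between 0.0017 (Ctsc) and 0.48 (Ctsa) in ischemia over sham.

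**Figure D3:**
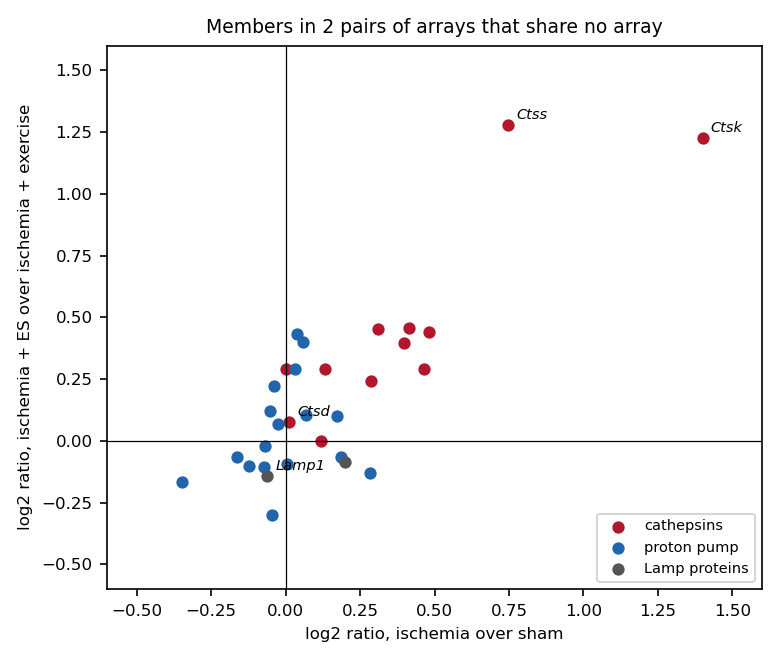
Log2 ratio in ischemia over sham (x axis) and in ischemia + ES over ischemia + exercise (y axis) for the 31 measured genes, 1 point per gene. Ctse, a bound on the x axis and without a ratio on the y axis, is drawn at 0.12 and 0. Ctsk (1.40 and 1.23) and Ctss (0.75 and 1.28) lie apart from the other genes, which stay below 0.50 on both axes.

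Other lysosomal genes were taken from lists. Of 35 listed hydrolases other than cathepsins, most of which act on sugars and lipids, 27 were measured. Their median log2 ratio was 0.32 in ischemia over sham, 0.08 in ischemia + ES over ischemia and -0.18 in ischemia + exercise over ischemia. Acp5 alone passed 2-fold in these 3 comparisons. It encodes tartrate-resistant acid phosphatase, which osteoclasts and macrophages make, and its signal was 71.6 with ischemia + ES, under the floor with ischemia + exercise, 65.2 with ischemia and under the floor with sham. That is at least 2.16-fold higher in ischemia than in sham and at least 2.16-fold lower in ischemia + exercise than in ischemia. Of all genes, 0.783% were 2-fold higher in the first of these and 0.872% lower in the second.

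Of 20 listed membrane and cofactor genes of lysosomes, 18 were measured, with median log2 ratios of 0.21, 0.11 and -0.13 in the same comparisons. Cd68, a Lamp-related glycoprotein of macrophages, read 135 with ischemia + ES, under the floor with ischemia + exercise, 114 with ischemia and 32.4 with sham. Laptm5, a lysosomal protein of blood cells, read 89.3, 36.5, 73.5 and 45.0 in that order and was 2.01-fold lower in ischemia + exercise than in ischemia. Tcirg1, which encodes a further a subunit of V0 used in osteoclasts, read 97.0 with ischemia + ES, 66.6 with ischemia + exercise, 87.1 with ischemia and 67.3 with sham. Its log2 ratio of 0.37 in ischemia over sham was above that of each measured Atp6v gene.

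Transcription factors of lysosomal genes differed by less. Tfeb read 666 with ischemia + ES, 677.5 with ischemia + exercise, 669 with ischemia and 677 with sham. Tfe3 lay between 305 and 352 and Mitf between 401.5 and 484, both highest with sham, while Tfec was under the floor. Of 15 listed autophagy genes 13 were measured, and none reached 1.5-fold in the 3 comparisons with ischemia. Among all genes, 4.94% were higher and 3.19% lower by that measure in ischemia over sham. The shares were 9.8% and 4.72% in ischemia + ES over ischemia, and 4.02% and 4.24% in ischemia + exercise over ischemia. Such shares of 13 genes are few genes, so nothing is read from this count. The autophagy median log2 ratio was -0.09 in ischemia over sham, -0.04 in ischemia + ES over ischemia and 0.07 in ischemia + exercise over ischemia. Of the 4 measured cathepsin inhibitors, Cst3, for secreted cystatin C, lay between 4076 and 4641, and Cstb, for the cytosolic cystatin B, read 913 with ischemia + ES, 667 with ischemia + exercise, 552 with ischemia and 498 with sham. The 1.65-fold higher Cstb in ischemia + ES than in ischemia was the sole inhibitor ratio past 1.5-fold in those comparisons. In ischemia + ES over ischemia, 9.8% of all genes were higher by that measure.

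**Figure D4:**
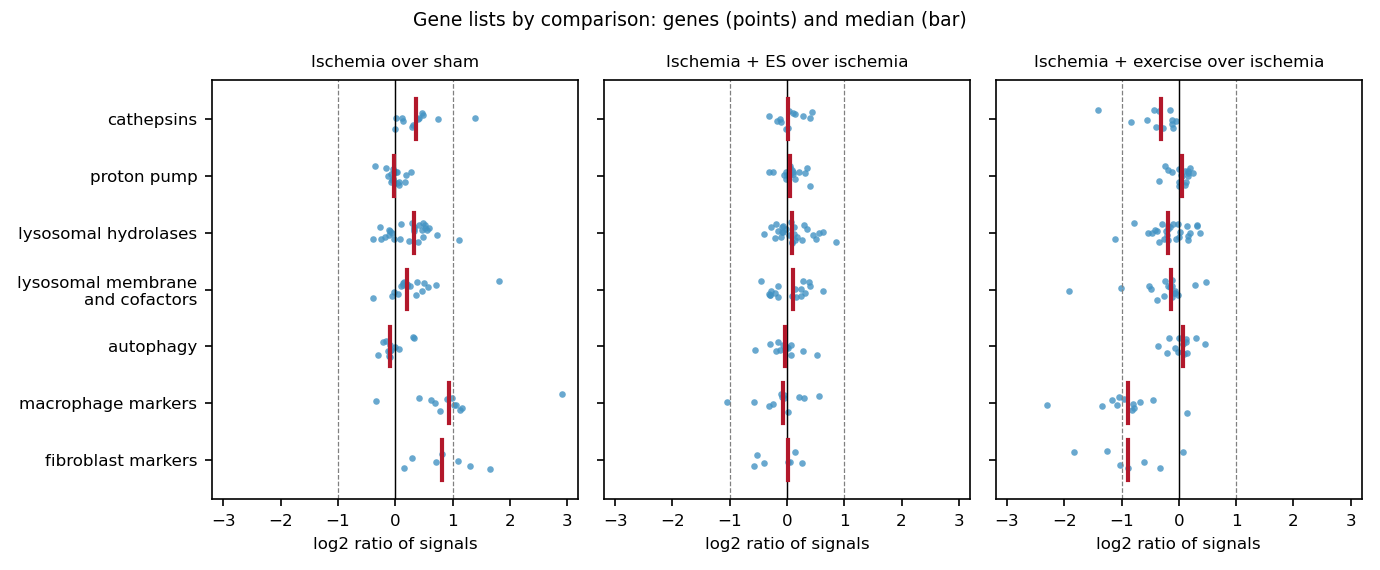
Log2 ratio of signals (x axis) of the measured genes (points) of 7 lists (rows) in 3 comparisons, with the list's median as a red bar and 2-fold as dashed lines. Cathepsins have medians of 0.35, 0.02 and -0.31, pump genes of -0.03, 0.06 and 0.05, and macrophage markers of 0.95, -0.07 and -0.89.

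Markers of other cells differed between the arrays as well. Of 14 listed macrophage markers 13 were on the array and 12 above the floor, all of them on each array, while Itgam was under it throughout. Their summed signal was 4877 with ischemia + ES, 1898 with ischemia + exercise, 4169 with ischemia and 1812 with sham. Of the 12, 5 were 2-fold higher in ischemia than in sham, against 0.783% of all genes. In ischemia + exercise over ischemia, 5 were 2-fold lower, against 0.872% of all genes. C1qb was 2-fold lower in ischemia + ES than in ischemia, where 0.793% of all genes were, and Cd163 was highest with sham. The sum was carried by Lyz2, with 2553, 984, 2073 and 925 in that order, and Gpnmb, with 1158, 160, 787 and 105. Of the 12 markers, 8 were lower with ischemia + ES than with ischemia, with a median log2 ratio of -0.07, although the sum was higher. The 7 fibroblast markers, 7 of 7 measured, summed to 21220 with ischemia + ES, 13870 with ischemia + exercise, 24660 with ischemia and 13760 with sham. Differences in this sum came mostly from the collagen genes Col1a1, Col1a2 and Col3a1. In ischemia over sham, Col1a1 was 3.13-fold higher, Col1a2 2.46-fold, Col3a1 1.76-fold, Thy1 2.14-fold, Pdgfra 1.645-fold, Dcn 1.22-fold and Lum 1.11-fold. Lum alone was higher in ischemia + exercise than in ischemia. In ischemia + ES over ischemia, 4 of the 7 had ratios above 0, with a median log2 ratio of 0.01. The part of these cells in the cathepsin signals was not tested.

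Other lists were dim or moved another way. Both osteoclast markers on the array, Calcr and Mmp9, were under the floor on all 4 arrays, as were the 3 of dendritic and B cells. Of 6 mast cell markers 3 were above the floor on at least 1 array. Of 5 listed neutrophil markers 2 were on the array, and S100a8 passed the floor with sham alone. Mast cell markers summed to between 123 and 180 and neutrophil markers to between 100 and 147, with signals under the floor included. Of 5 T and NK cell markers, Cd3e, Gzmb and Nkg7 were under the floor on all arrays. The number above it was 2 with ischemia + ES, 1 with ischemia, and 0 with ischemia + exercise and with sham. Their sums were 122 with ischemia + ES, 36.8 with ischemia + exercise, 83.0 with ischemia and 54.7 with sham. These sums include signals under the floor, so nothing is read from them. The 6 slow-fibre markers summed to 17770 with ischemia + ES, 54450 with ischemia + exercise, 9230 with ischemia and 47210 with sham, high on the arrays where Ctsk was low. Whether the fibre makeup of the muscle pieces had a part in the cathepsin signals was not tested.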

How the data were processed

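The values deposited by the authors are linear intensities, 1 for each probe set on each array. The submitters' processing notes name MAS5, and the sources used here give no other step. With 2% trimmed, the mean intensity was 150.1 on each array, so arrays had been scaled alike, and a difference in total mRNA cannot be seen. Probe sets with 1 symbol in the platform annotation of 2016 were used (20832 of 31099, with 436 having several symbols and 9831 none). All 44 gene identifiers were found in RefSeq (GRCr8) with the same symbol.

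Each array was brought to the same trimmed mean, floored at 30.1 (the 50th percentile) and turned to log2 (Python 3.11.15, numpy 2.4.6, pandas 2.3.3). Genes were called at 2-fold, and a ratio with 1 array at the floor is a bound. Alternatives were quantile and cyclic loess normalization (limma 3.58.1), floors at the 30th and 70th percentiles, 1.5-fold and 3-fold thresholds, the mean of all probe sets, leaving out the 244 probe sets with _x_at in their ID, and, added after seeing the data, leaving out Ctse.

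The genes, lists and thresholds were chosen with earlier results of these data known. Named in full were genes past 2-fold, the 2 brightest of each role, and restricted isoforms above the floor. Other members were given more briefly, and from the other lists up to 4 genes past 2-fold per comparison and 6 fixed genes (Tfeb, Tfe3, Mitf, Tcirg1, Cst3 and Cstb). Gpnmb, Lyz2, C1qb, Cd163 and the fibroblast markers given singly were chosen after their values were seen. Where a gene had several promoter windows, the one lowest in coordinate was used on either strand. The calculations were tested on simulated arrays. Precision is limited by having 4 arrays.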

Additional observations from a re-analysis of the deposited data

How the results depend on the processing

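The calls of Ctsk and Ctss and their directions were the same with quantile or loess normalization and with either other floor. A floor acts only on signals under it. The lower floor of 10.9 could not change these calls, because the lowest signal of the pair was 105. Averaging probe sets or leaving out _x_at ones could not change the ratios of the pair either. Each gene had 1 probe set, and neither was an _x_at one. The medians of the cathepsins and of the pump genes moved by less than 0.1 in log2 in all 6 comparisons. This held under each of these normalizations, floors and probe set choices. At 1.5-fold, 2 genes were counted in ischemia over sham, 2 in ischemia + exercise over ischemia and 4 in ischemia + ES over sham. At 3-fold, 0 were counted in any comparison, but the share of all genes was not taken at that threshold, so nothing is read from this count. With a floor at the 30th percentile (a signal of 10.9), 2 genes were counted in ischemia over sham, 1 in ischemia + ES over ischemia and 3 in ischemia + exercise over ischemia: Atp6v1b1 joined in all 3, and Ctse in the last. Both were dim, so these counts rest on signals under or near the main floor, and of all 12567 genes above that floor 460, 635 and 574 passed 2-fold in these comparisons. With the mean of all probe sets, 1 cathepsin (Ctsl) instead of 0 had a ratio above 0 in ischemia + exercise over ischemia. In ischemia over sham and in each treatment over ischemia, the sign changed for at most 3 of 31 genes under any alternative, all with log2 ratios within 0.13 of 0. Without Ctse the counts of cathepsins above 0 were 11, 7 and 0 of 11 in those comparisons. No paired analysis was possible because each group has 1 array. Dim genes are limited by the noise of MAS5 signals, and with 1 array per group the spread between animals is unknown.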
